A study of Mus musculus with 9 samples.

Results

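Syk and 9 genes of the signalling route around it were followed across 9 mouse tumors. Syk encodes the kinase that R788 (fostamatinib, an oral prodrug of a Syk inhibitor) is designed to block. The 10 genes were Syk, Tyrobp, Fcer1g, Btk, Plcg2, Lyn, Lcp2, Vav1, Card9 and Pik3cd, taken by symbol from a table of 54429 symbols. Each had a single row in that table and all 10 passed the filter on low counts, as did 15931 symbols in all.

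NB9464, a mouse neuroblastoma cell line in which MYCN is amplified, was injected under the skin of wild-type C57BL/6 mice to raise the tumors. Treatment was started at a tumor volume of 250 mm3 and whole tumors were sequenced from 3 groups of 3. The first group was given vehicle, the second R788 at 50 mg/kg with an antibody to PDL1 (R788 + anti-PDL1), and the third the same agents with 10 Gy of radiation (Rad + R788 + anti-PDL1, called irradiated here). By the methods of the study the C57BL/6 mice were 4 to 6 weeks of age, and their sex was not given in the sources used here. Each treated tumor had received both R788 and anti-PDL1, so the effects of these agents cannot be told apart, and radiation was measured only on top of them. The sources also do not say that the 3 tumors of a group came from separate mice, so the p-values measure the spread between these samples.

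Total counts were 18276683 to 23397886 per library. Irradiated replicate 1 stood apart from the rest. Its TMM scaling factor was 0.743 against 0.975 to 1.12 in the other 8 libraries, 1.97% of its counts were mitochondrial against 3.48% to 5.71%, and 18263 genes had a count against 19732 to 22129. The main results that include it are therefore also given without it. Of the neuroblast markers, Th, Dbh, Phox2a and Chga had at most 3 counts in every library, while Hand2 ranged from 325 to 867 CPM and Mycn from 93.3 to 250.3 CPM. CPM are counts per 1000000 of a library's TMM-scaled total, and 3 counts corresponded to 0.115 to 0.221 CPM.

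An ITAM is a short stretch with a pair of tyrosines in the tail of an immune receptor or of its adaptor. When a ligand clusters the receptor, Src family kinases such as Lyn phosphorylate the tyrosines, Syk docks on them by its SH2 domains, and Syk then phosphorylates adaptors and enzymes that drive calcium release, phosphoinositide signalling and NF-kappaB. The route is best known in macrophages, neutrophils, mast cells and B cells, where Fc receptors, C-type lectins and the B cell receptor use it. Inhibition of a kinase acts on the protein's activity, which RNA levels do not measure.

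The promoters of 4 of these genes are shown because the comparisons turn on them: Syk as the drug target, Fcer1g as the adaptor that followed it most closely among the receptor adaptors, Vav1 as the gene with the highest log2 fold change in both comparisons with vehicle, and Card9 as the gene that did not follow the others. The letters are from RefSeq on GRCm38.p6, up to 250 bases before the transcription start, cut where an exon of a coding gene in GENCODE M21 begins. Capitals mark GAGGAA, the core of the element bound by PU.1, the transcription factor that myeloid cells and B cells depend on.
Syk, chr13:52596632-52596852, plus strand, second start: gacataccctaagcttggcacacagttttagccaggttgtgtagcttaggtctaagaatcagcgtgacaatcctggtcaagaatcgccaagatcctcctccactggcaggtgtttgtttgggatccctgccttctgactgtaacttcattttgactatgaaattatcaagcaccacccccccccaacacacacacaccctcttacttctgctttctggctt
Fcer1g, chr1:171234366-171234599, minus strand: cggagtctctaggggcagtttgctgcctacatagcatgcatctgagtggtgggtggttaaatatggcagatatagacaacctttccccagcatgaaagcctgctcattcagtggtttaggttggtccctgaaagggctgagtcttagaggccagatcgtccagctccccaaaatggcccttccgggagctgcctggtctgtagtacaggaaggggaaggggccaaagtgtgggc
Vav1, chr17:57278850-57279099, plus strand: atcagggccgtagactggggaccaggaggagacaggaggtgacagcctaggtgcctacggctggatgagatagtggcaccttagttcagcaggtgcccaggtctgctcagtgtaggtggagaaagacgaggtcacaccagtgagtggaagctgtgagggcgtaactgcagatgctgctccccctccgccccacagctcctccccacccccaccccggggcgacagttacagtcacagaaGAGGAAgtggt
Card9, chr2:26360919-26361159, minus strand: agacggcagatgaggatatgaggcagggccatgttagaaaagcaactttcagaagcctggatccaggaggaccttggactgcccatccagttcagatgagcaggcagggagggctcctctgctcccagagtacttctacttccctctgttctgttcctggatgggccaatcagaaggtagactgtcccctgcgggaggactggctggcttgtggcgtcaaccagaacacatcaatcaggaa
GAGGAA was searched on both strands over the whole 250 bases. The RefSeq promoter set used here had no entry for Tyrobp and Lyn, and for the other 8 genes it held 11 promoters. Of these, 2 held the letters, against 7639 of all 32851 promoters of this length (23.3%). In Vav1 the match began 11 bases before the start. In Syk it began 9 bases before the second start, in the stretch that an annotated exon covers, so it lies past the end of the line shown. A match of letters is a description and no measure of binding.

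The 10 genes differed widely in level. To compare genes, CPM were divided by the exon length in kilobases. In vehicle tumors Tyrobp, the adaptor also known as DAP12 (chr7:30413760-30417585), was highest at 17.3 ± 9.6 CPM per kilobase (SD, n = 3), followed by Fcer1g, the gamma chain of Fc receptors (chr1:171229572-171234365), at 14.9 ± 5.6. These neighbours did not differ beyond their spread. Next came Plcg2, the phospholipase C that makes the calcium signal (chr8:117498291-117635142), at 8.64 ± 1.46, and Pik3cd, the delta catalytic subunit of PI3 kinase (chr4:149649168-149702571), at 4.94 ± 0.50. Lyn (chr4:3678115-3813122) had 2.61 ± 0.61 and Syk (chr13:52583173-52648792) 1.66 ± 0.35 CPM per kilobase, and the ranges of these 2 genes overlapped. The lowest 4 overlapped as well. They were Lcp2, the adaptor SLP-76 (chr11:34046920-34092295), at 0.851 ± 0.219, Card9, the adaptor that links Syk to NF-kappaB below C-type lectins (chr2:26352176-26360918), at 0.844 ± 0.381, Vav1, a guanine nucleotide exchange factor (chr17:57279100-57328031), at 0.633 ± 0.373, and Btk, a Tec family kinase (chrX:134542336-134583570), at 0.456 ± 0.199. Order among the top 6 was the same in all 3 groups, apart from Tyrobp and Fcer1g, which changed places in both treated groups. Coordinates are GRCm38. The exons of Lyn, Lcp2 and Card9 overlap a gene on the other strand (Gm26857, 4930469K13Rik and Gm13562), and strandedness was not stated, so counts of these 3 genes are less certain.

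**Figure D1:**
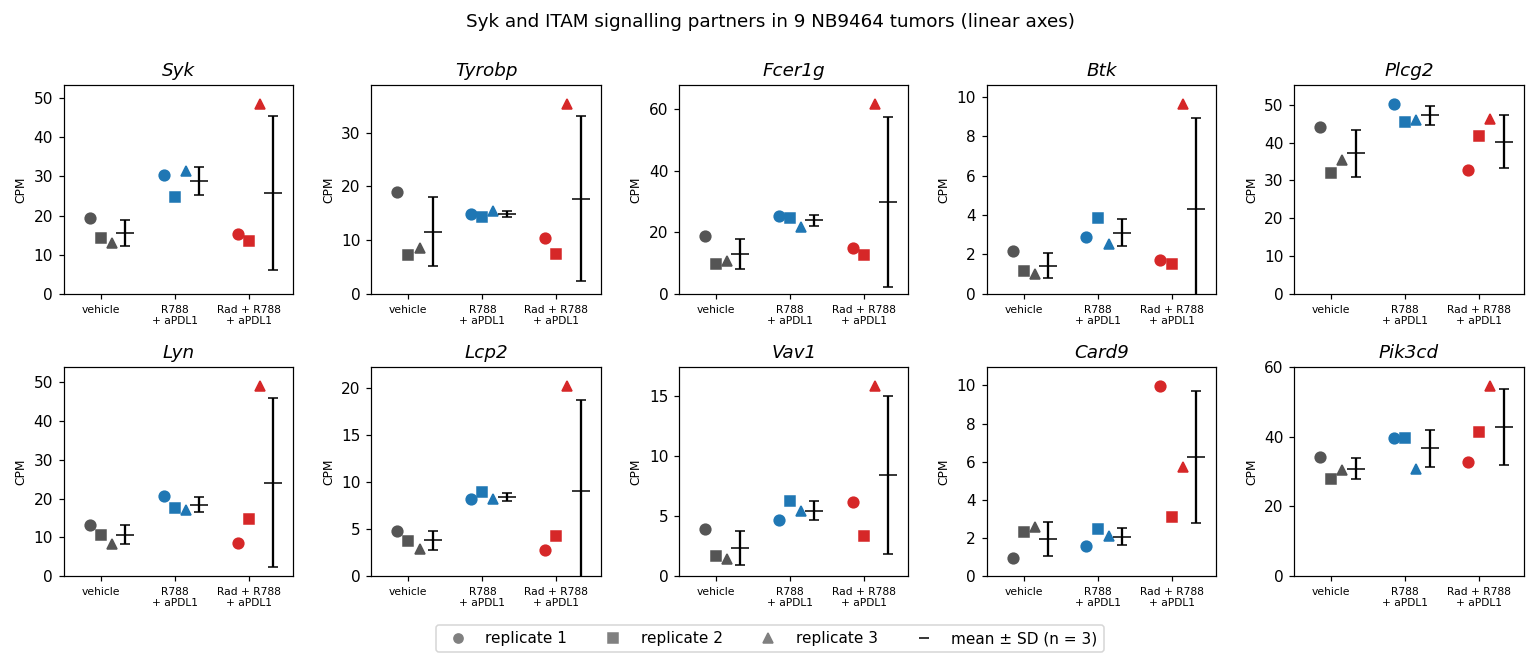
Levels of the 10 genes in each tumor. Each panel is a gene, the vertical axis is CPM on a linear scale from 0, symbols are tumors by replicate number, and the bars beside them are mean ± SD (n = 3). The R788 + anti-PDL1 tumors lie close together, while irradiated replicate 3 lies above the other irradiated tumors in 9 of 10 panels, and in the Card9 panel all 3 irradiated tumors lie above the rest.

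R788 + anti-PDL1 against vehicle asked how the route's RNA stood in tumors whose mice had received the Syk inhibitor. Syk had 19.3, 14.3 and 13.0 CPM in vehicle replicates 1 to 3 and 30.3, 24.8 and 31.4 CPM with R788 + anti-PDL1. Each treated tumor was above each vehicle tumor. The log2 fold change was 0.89 ± 0.45 (SE), with an edgeR adjusted p of 0.510, so Syk was not called.

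The receptor adaptors differed from each other in this comparison. Fcer1g had 18.7, 9.74 and 10.7 CPM in vehicle tumors and 25.3, 24.5 and 21.8 CPM in R788 + anti-PDL1 tumors, with no overlap. Tyrobp had 18.9, 7.23 and 8.55 CPM in vehicle tumors and 15.0, 14.3 and 15.5 CPM in treated tumors. Vehicle replicate 1 was the highest of these 6 for Tyrobp, so the groups overlapped, and the log2 fold change was 0.37 ± 0.57 against 0.87 ± 0.56 for Fcer1g. Without vehicle replicate 1 the Tyrobp value was 0.94. Over 13 alternative fits, which included leaving out 1 library at a time, Tyrobp ran from 0.11 to 0.94 and Fcer1g from 0.69 to 1.24. Vehicle replicate 1 was the highest of its group for 9 of the 10 genes and the lowest for Card9.

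Among the kinases, Lyn, which phosphorylates ITAMs, had 13.1, 10.6 and 8.17 CPM in vehicle tumors and 20.5, 17.7 and 16.9 CPM with R788 + anti-PDL1. Btk had 2.15, 1.17 and 0.987 CPM against 2.91, 3.86 and 2.54 CPM. Both genes were higher in all 3 treated tumors, with log2 fold changes of 0.79 ± 0.54 and 1.11 ± 0.72. Btk rested on 18 to 39 counts in the vehicle tumors.

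Downstream of Syk, Vav1 had 3.92, 1.66 and 1.42 CPM in vehicle tumors and 4.67, 6.23 and 5.45 CPM in treated tumors. Lcp2 had 4.80, 3.73 and 2.85 CPM against 8.20, 8.87 and 8.16 CPM, and Plcg2 had 44.1, 32.0 and 35.4 CPM against 50.2, 45.5 and 46.0 CPM. None of these 3 genes overlapped between groups, and Vav1 had the highest log2 fold change of the 10, at 1.22 ± 0.60, while that of Plcg2 was small at 0.35 ± 0.20. Pik3cd ranged from 28.0 to 34.2 CPM in vehicle tumors and from 30.7 to 39.8 CPM in treated tumors. Card9 ranged from 0.939 to 2.58 CPM and from 1.59 to 2.48 CPM. Both overlapped, with log2 fold changes of 0.25 ± 0.23 and 0.09 ± 0.53.

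In all, 7 of the 10 genes (Syk, Fcer1g, Btk, Plcg2, Lyn, Lcp2 and Vav1) were higher in every R788 + anti-PDL1 tumor than in every vehicle tumor, against 13.6% of the 15931 genes tested. The count was 7 to 9 when any of the 6 libraries was left out, against 15.8% to 21.5% of all genes. The log2 fold change was above 0 for 10 of 10, against 48.4% of all genes, and its median was 0.83 against -0.02. Without vehicle replicate 1 it was above 0 for 9, with Card9 at -0.22. edgeR called 0 of the 10, against 0.678% of all genes, with adjusted p-values from 0.492 to 0.974, and 0 had an unadjusted p under 0.05, against 11.7%. DESeq2 called 0, against 4.01%. limma-voom with quality weights called 4 of 10 higher (Syk, Plcg2, Lcp2 and Vav1), against 30.3% of all genes. Its weights were 1.20, 0.368 and 5.38 for R788 + anti-PDL1 replicates 1 to 3 and 0.484, 1.24 and 3.99 for vehicle replicates 1 to 3. Replicate 3 of each group thus counted most in these calls. Irradiated replicate 1 had a weight of 0.0775. An edgeR fit to the 6 libraries compared called Syk alone, with an adjusted p of 0.0451, against 3.84% of all genes.

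**Figure D2:**
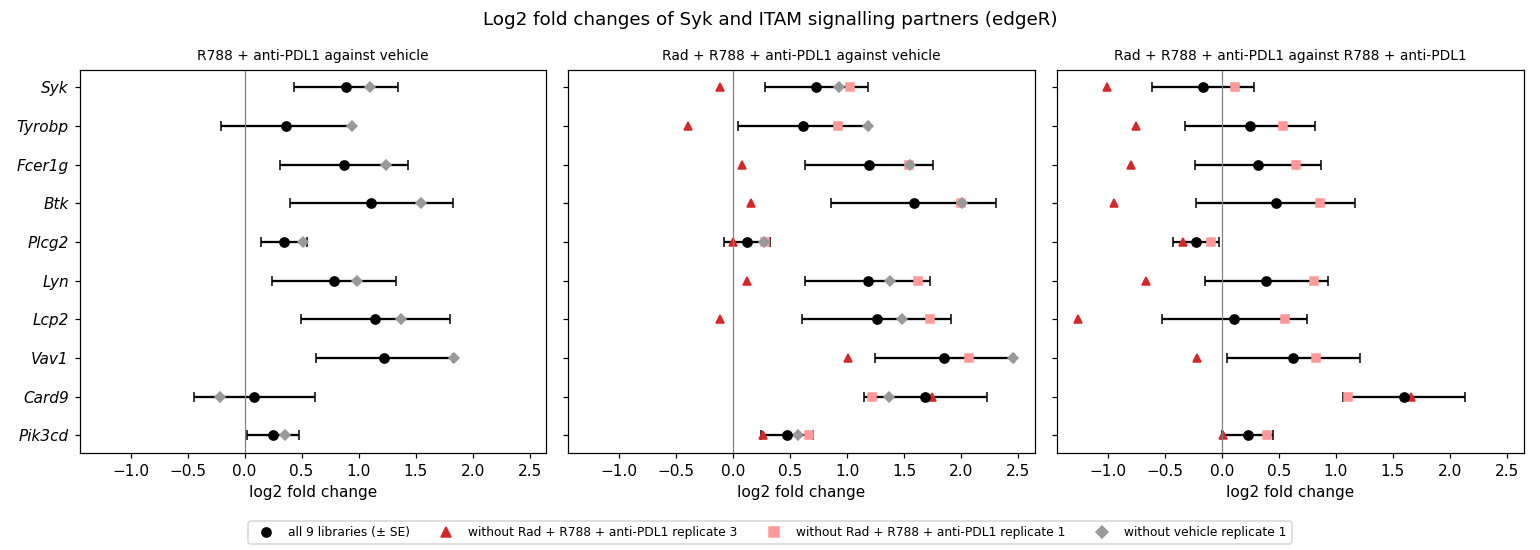
Log2 fold changes of the 10 genes in the 3 comparisons, from edgeR. Black points are fits to all 9 libraries with bars of 1 SE, and coloured points are fits without 1 library. All black points lie above 0 in the first panel. In the second, Syk moved from 0.73 to -0.12 without irradiated replicate 3, while Card9 moved from 1.68 to 1.74. In the third, 8 of the 10 red triangles lie below 0.

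Rad + R788 + anti-PDL1 against vehicle uses the same vehicle tumors, so its values are not independent of those above. Syk had 15.3, 13.4 and 48.5 CPM in irradiated replicates 1 to 3. Replicate 3 was above each vehicle and each R788 + anti-PDL1 tumor, while replicates 1 and 2 lay within the vehicle range of 13.0 to 19.3 CPM. The log2 fold change was 0.73 ± 0.45, with an edgeR adjusted p of 0.461, and it was -0.12 without replicate 3 and 1.03 without replicate 1.

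Other genes had the same tumor at the top. Tyrobp had 10.3, 7.36 and 35.3 CPM in the irradiated tumors, and Fcer1g had 15.0, 12.6 and 61.6 CPM. Lyn had 8.48, 14.7 and 49.0 CPM. In these 3 genes replicates 1 and 2 lay at or near the vehicle levels. Btk had 1.70, 1.52 and 9.64 CPM and Lcp2 2.73, 4.26 and 20.1 CPM, again with replicates 1 and 2 inside or just below the vehicle range. Log2 fold changes of these 5 genes ran from 0.61 ± 0.57 (Tyrobp) to 1.58 ± 0.72 (Btk). Without replicate 3 they ran from -0.39 (Tyrobp) to 0.16 (Btk), and without replicate 1 from 0.92 to 2.0 for the same genes.

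Without that tumor Card9 was little changed, and Vav1 fell by as much as Syk but remained above 0. Card9 had 9.96, 3.10 and 5.71 CPM in the irradiated tumors against 0.939, 2.29 and 2.58 CPM in the vehicle tumors. Its highest value was in replicate 1, and all 3 irradiated tumors were above all 6 others. The log2 fold change was 1.68 ± 0.54, with an edgeR adjusted p of 0.279 (unadjusted 0.0113), and it was 1.74 without replicate 3 and 1.22 without replicate 1. Vav1 had 6.12, 3.30 and 15.8 CPM. Replicate 2 fell below the highest vehicle tumor, so the groups overlapped. Vav1 had a log2 fold change of 1.85 ± 0.61, with an edgeR adjusted p of 0.287 (unadjusted 0.0132), and it was 1.0 without replicate 3 and 2.07 without replicate 1.

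The 2 genes with the highest CPM in vehicle tumors had the smallest log2 fold changes here. Plcg2 had 32.8, 41.7 and 46.4 CPM in the irradiated tumors, inside the span of the vehicle and R788 + anti-PDL1 tumors, with a log2 fold change of 0.12 ± 0.20. Pik3cd had 32.8, 41.3 and 54.6 CPM, with a log2 fold change of 0.47 ± 0.23 and an edgeR adjusted p of 0.392. Without irradiated replicate 1 the values were 0.28 for Plcg2 and 0.66 for Pik3cd, and the Pik3cd groups no longer overlapped.

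Over the 10 genes the log2 fold change was again above 0 for 10, against 52.9% of all genes, and the median was 1.18 against 0.05. Without irradiated replicate 3 the median was 0.10 and 7 of 10 were above 0, and without irradiated replicate 1 the median was 1.38 and 10 were above 0. Only Card9 did not overlap between groups, against 9.27% of all genes that were higher without overlap. That count was 5 without vehicle replicate 1 (Fcer1g, Btk, Vav1, Card9 and Pik3cd), against 17.9% of all genes. It was 3 without irradiated replicate 1 (Lyn, Card9 and Pik3cd), against 17.2%, and 2 without irradiated replicate 2 (Vav1 and Card9), against 13.5%. edgeR called 0 of 10, against 0.0439% of all genes, and 2 of 10 (Vav1 and Card9) had an unadjusted p under 0.05, against 13.2%. DESeq2 called the same 2 genes higher, with adjusted p-values of 0.0457 for Vav1 and 0.0451 for Card9, against 3.15% of all genes. limma-voom with quality weights called Pik3cd alone, against 12.5%, and the edgeR fit to the 6 libraries compared called 0 of 10, against 0.00667%.

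The comparison of the irradiated tumors with the R788 + anti-PDL1 tumors addressed what radiation added. Card9 had the highest log2 fold change of the 10 genes here. Its R788 + anti-PDL1 tumors had 1.59, 2.48 and 2.09 CPM, all below the irradiated tumors. The log2 fold change was 1.60 ± 0.53, with an edgeR adjusted p of 0.223 (unadjusted 0.0142). It was 1.66 without irradiated replicate 3 and 1.11 without irradiated replicate 1. The other 9 genes overlapped between groups. For Syk the log2 fold change was -0.16 ± 0.45, since 2 irradiated tumors lay below and 1 above all R788 + anti-PDL1 tumors.

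The direction of most genes in this comparison hung on irradiated replicate 3. With all 9 libraries, 8 of 10 log2 fold changes were above 0, against 52.5% of all genes, and the median was 0.28 against 0.04. Without irradiated replicate 1 the median was 0.60 and 9 were above 0, with Syk at 0.12. Without irradiated replicate 3, 2 of 10 were above 0 and the median was -0.71. Syk was then at -1.01, Lcp2 at -1.26, Btk at -0.95, Fcer1g at -0.79, Tyrobp at -0.76, Lyn at -0.66 and Plcg2 at -0.34, and the remaining 2 irradiated tumors were below all R788 + anti-PDL1 tumors in these 7 genes, against 20% of all genes. With all 9 libraries 0 of the 10 were lower without overlap, against 13.2% of all genes, and 1 was higher, against 14.2%. edgeR called 0 of 10, against 0.00628% of all genes, and Card9 alone had an unadjusted p under 0.05, against 18.4%. DESeq2 called 0, against 4.06%, and limma-voom with quality weights called Card9 and Pik3cd higher, against 19.3%.

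Whether the genes moved together was described by the correlation of log2 CPM (prior count 2) over the 9 tumors, for all 45 pairs. The points are the same libraries for each pair, and the 3 groups differ in treatment. The median Pearson r was 0.78 and 42 of 45 were positive. By exact permutation tests over the 362880 pairings of the tumors, 31 of 45 had a Benjamini-Hochberg adjusted p under 0.05 by Pearson's r and 23 by Spearman's rho, all with positive coefficients. The permutations moved tumors across the 3 groups, so differences between groups enter these counts. The share of such pairs among all genes was not tested, so whether these counts are unusual cannot be told. The 7 genes Syk, Tyrobp, Fcer1g, Btk, Lyn, Lcp2 and Vav1 formed the tightest group, chosen after their values were seen, with r from 0.78 to 0.99 in their 21 pairs.

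Fcer1g and Btk were the closest pair, with r = 0.99 (exact permutation p = 1.65e-05, adjusted 0.000744) and rho = 0.97 (exact permutation p = 0.000165, adjusted 0.00744). Without the 2 tumors farthest from the median r was 0.96. Syk was closest to Lcp2 (r = 0.95, exact permutation p = 0.000502, adjusted 0.00322) and to Fcer1g (r = 0.95, exact permutation p = 0.000154, adjusted 0.00231). Spearman's rho was 0.82 for Lcp2 (exact permutation p = 0.0108, adjusted 0.0255) and 0.90 for Fcer1g (exact permutation p = 0.00203, adjusted 0.0130). Without the 2 farthest tumors these r were 0.89 and 0.94. Syk passed with 7 of its 9 partners by r and by rho, all but Card9 (r = 0.01) and Pik3cd (r = 0.63).

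Card9 passed with none of its 9 partners by exact permutation, with r from -0.41 (Plcg2) to 0.40 (Vav1) and a median of 0.05. The other 36 pairs had r from 0.57 to 0.99, with a median of 0.82. Irradiated replicate 1, the library that stood apart, held the highest Card9 value. Without it the Card9 pairs had r from -0.07 to 0.56 and the other 36 pairs from 0.62 to 0.99.

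The correlation was partly a matter of irradiated replicate 3, which had the highest value of the 9 tumors in 8 of the 10 genes. Without it the median r of the 45 pairs was 0.66, and r ran from 0.54 to 0.96 in the 21 pairs of the tightest group. With the group means removed the median was 0.81. With the group means removed and without irradiated replicate 3 it was 0.44. In the 21 pairs of the tightest group r then ran from 0.08 (Lyn and Vav1) to 0.96, with a median of 0.61. It was 0.35 for Syk and Lcp2 and 0.74 for Syk and Fcer1g. Several pairs changed markedly when the 2 farthest tumors were left out. The r of Tyrobp and Pik3cd was 0.66 with 9 tumors and -0.08 without the 2 farthest, and that of Fcer1g and Pik3cd was 0.81 and 0.31. For Lyn and Vav1 it was 0.78 and 0.28, and for Lyn and Card9 it was 0.05 and -0.61.

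**Figure D3:**
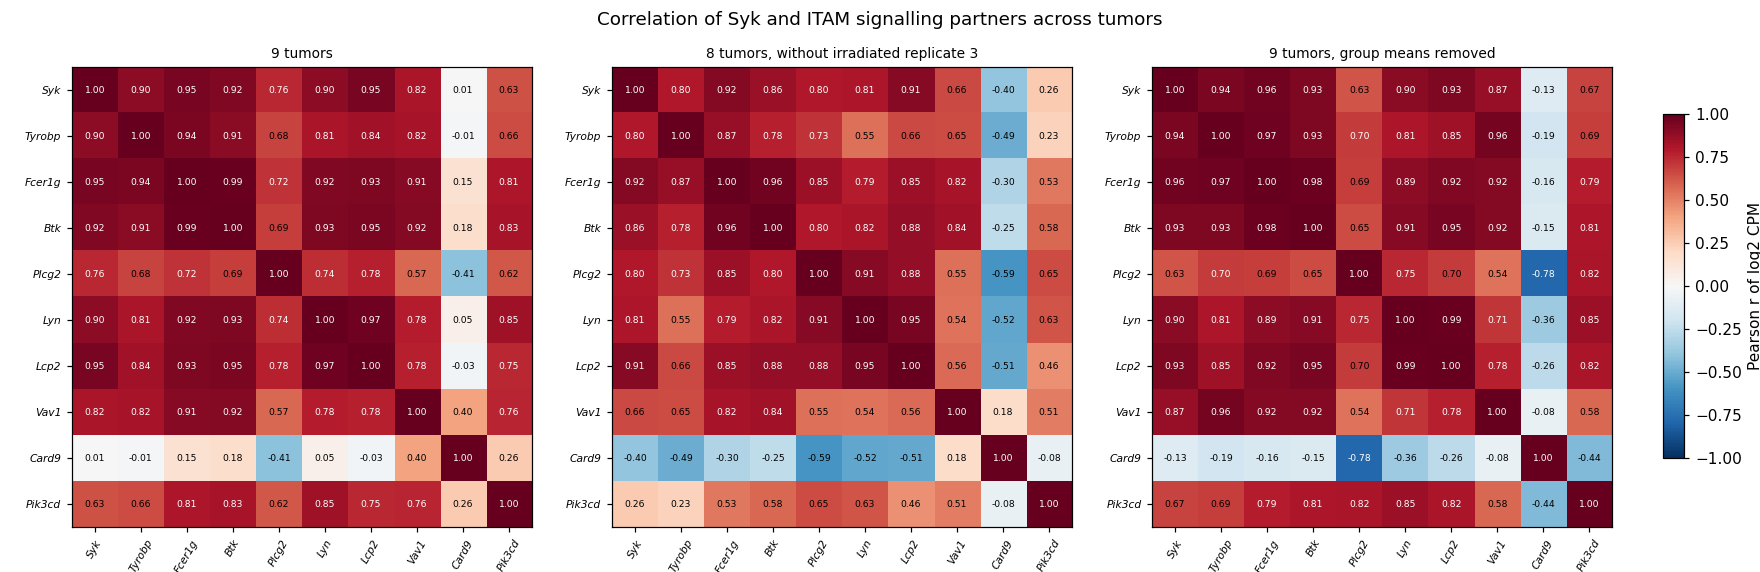
Pearson r of log2 CPM for each pair of the 10 genes over all 9 tumors, over the 8 tumors without irradiated replicate 3, and over the 9 tumors with the group means removed. Colour runs from -1 (blue) to 1 (red). The Card9 row is pale or blue in all 3 panels, with r up to 0.40, and the other pairs are positive in each panel.

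Whole tumors hold many cell types, and in bulk RNA fewer cells of a type and less RNA per cell cannot be told apart. The summed CPM of 11 macrophage markers, none of them at 0, was 700, 330 and 407 in vehicle replicates 1 to 3. It was 733, 712 and 735 in R788 + anti-PDL1 tumors and 577, 374 and 1876 in irradiated tumors. The tumor with the most Syk was also the one with the most macrophage marker RNA. Over the 9 tumors Syk followed this sum with r = 0.92 (exact permutation p = 0.00013, adjusted over 80 relations 0.0027) and rho = 0.93 (exact permutation p = 0.00075, adjusted 0.0150), and r was 0.88 without the 2 farthest tumors, 0.86 without irradiated replicate 3 and 0.94 without irradiated replicate 1. Fcer1g had r = 0.98 and Tyrobp 0.97, and Card9 had 0.18 (exact permutation p = 0.620, adjusted 0.741). The part of cell content in the levels of the 10 genes was not tested.

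The pan-leukocyte marker and the T cell sum also peaked in irradiated replicate 3. Ptprc, which encodes CD45 of all leukocytes, was at 68.8 CPM there and at 7.23 to 40.5 CPM in the other 8 tumors. The summed CPM of 7 T cell markers was 34.5 there, 1.84 and 6.70 in the other irradiated tumors, 4.36 to 23.8 with R788 + anti-PDL1 and 1.81 to 4.20 with vehicle. Cd4 was the largest of the 7 in each tumor, at 17.4 CPM in irradiated replicate 3. In R788 + anti-PDL1 replicate 1 Cd4 had 22.9 CPM, while Cd3e had 0.176, Trac 0.0441 and Cd8b1 0 CPM. Lyn followed this T cell sum with r = 0.90 (exact permutation p = 0.000135, adjusted over 80 relations 0.0027), rho = 0.95 (exact permutation p = 0.000353, adjusted 0.0150) and r = 0.84 without the 2 farthest tumors and 0.88 without irradiated replicate 1. The relation of Lyn to the T cell sum without Cd4 was not tested. The summed CPM of 4 NK cell markers did not peak in irradiated replicate 3: it was 7.81 there and 8.10 in R788 + anti-PDL1 replicate 2. Neutrophil markers summed to at most 17.7 CPM, again in irradiated replicate 3, where Csf3r alone had 13.7 CPM. Ly6g had no count in any library. Of the B cell markers, Cd22 was also highest in irradiated replicate 3, at 10.2 CPM.

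Mast cells use Fcer1g, Lyn and Syk below the IgE receptor, and their markers had another pattern. The summed CPM of 5 mast cell markers was 40.1, 61.5 and 45.1 with R788 + anti-PDL1 and 3.12 to 11.2 in the 6 other tumors, with 0 of 5 markers absent. Cpa3, mast cell carboxypeptidase, had 11.3, 16.8 and 12.3 CPM with R788 + anti-PDL1 and 0.384 to 2.87 CPM in vehicle tumors. Its log2 fold change was 3.47 ± 0.81 with an edgeR adjusted p of 0.10, and DESeq2 gave an adjusted p of 9.6e-05. Of the 5 markers edgeR called 0 (4 with an unadjusted p under 0.05), DESeq2 called 3 and limma-voom with quality weights called 5, all higher. The shares of all genes were 0.678% (11.7% with an unadjusted p under 0.05), 4.01% and 30.3% in the same order. The R788 + anti-PDL1 tumors formed a cluster of their own on this sum, so r over the 9 tumors mixes this split with the spread inside the groups. For Syk it was 0.47 (exact permutation p = 0.194, adjusted over 80 relations 0.360) with rho = 0.57 (exact permutation p = 0.121, adjusted 0.266). It was 0.92 without irradiated replicate 3 and -0.11 with group means removed, and for Fcer1g these last values were 0.96 and 0.02. Irradiated replicate 3, which had the most Syk, had 5.48 CPM of mast cell markers.

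**Figure D4:**
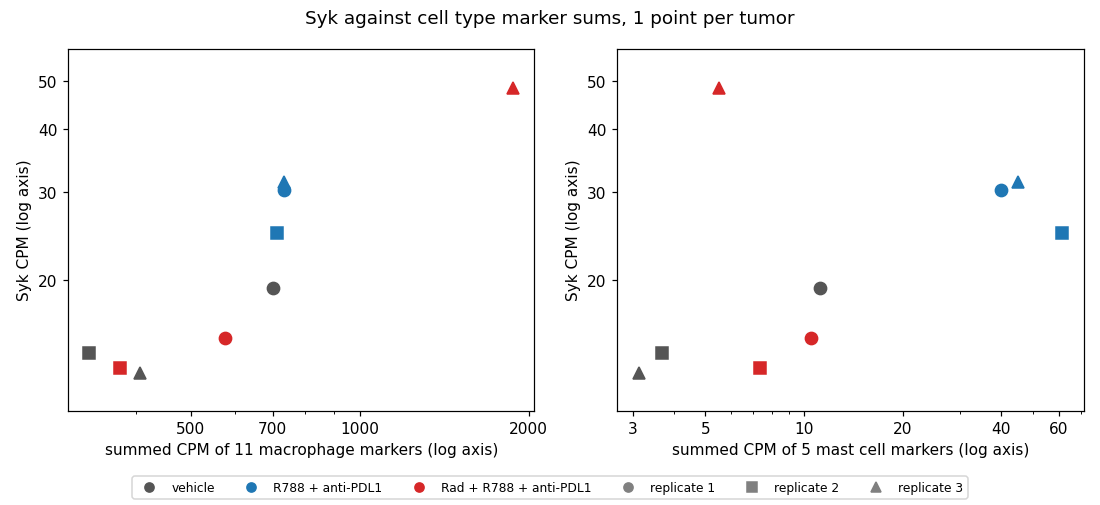
Syk CPM of each tumor against the summed CPM of 11 macrophage markers (left) and of 5 mast cell markers (right), on log axes. Colours are groups and symbols replicate numbers. Irradiated replicate 3 is at the top right on the left (1876 CPM of macrophage markers) and at the top left on the right (5.48 CPM of mast cell markers). The 3 R788 + anti-PDL1 tumors lie at 40.1 to 61.5 CPM of mast cell markers.

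Ratios within a library do not depend on its scaling. Syk amounted to 3.43% ± 0.81 (SD, n = 3) of the macrophage marker sum with vehicle, 3.96% ± 0.42 with R788 + anti-PDL1 and 2.94% ± 0.56 with irradiation, and all 3 groups overlapped. Vav1 was 0.560%, 0.503% and 0.350% of the sum with vehicle and 0.637%, 0.875% and 0.742% with R788 + anti-PDL1. It was 1.06%, 0.882% and 0.842% in the irradiated tumors, so both treated groups lay above vehicle. Fcer1g counts per Tyrobp count were 0.985, 1.35 and 1.26 with vehicle, 1.69, 1.71 and 1.41 with R788 + anti-PDL1 and 1.45, 1.71 and 1.74 in the irradiated tumors. Here too each treated tumor was above each vehicle tumor. For the Vav1 share and the Fcer1g ratio the two-sided exact permutation p was 0.1 against vehicle in both comparisons, the smallest that 3 against 3 tumors can give, and 0.471 after adjustment over 33 such comparisons. The Tyrobp share was lower without overlap in irradiated tumors (1.88% ± 0.09) than with vehicle (2.33% ± 0.33) or R788 + anti-PDL1 (2.05% ± 0.05). The Fcer1g share was higher without overlap with R788 + anti-PDL1 (3.28% ± 0.27) than with vehicle (2.75% ± 0.17). With irradiation the Fcer1g share overlapped vehicle. The non-overlapping shares had the same exact permutation p of 0.1. These ratios were chosen after the values were seen.

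The genes most like Syk were sought among 11642 tested genes whose mean count over the 9 tumors was 50 or more. Predicted genes (Gm followed by digits) and Rik clones were left out of this list. By Pearson r of log2 CPM the first 10 included Nrros, Irf8, Laptm5, Cd38, Mpeg1, Bag3, Ccnd2, Slc9a9 and Rnf150, with r from 0.98 to 0.95. Nrros, which encodes an endoplasmic reticulum protein of phagocytes, had 10.5, 6.06 and 7.40 CPM with vehicle, 14.8, 13.2 and 17.1 CPM with R788 + anti-PDL1 and 7.97, 7.36 and 34.7 CPM with irradiation. Without irradiated replicate 3 the r of the first 10 was 0.91 to 0.97. On the same list Lcp2 was at place 11, Fcer1g at 12, Btk at 25, Lyn at 53 and Tyrobp at 55. Vav1 followed at place 183, Plcg2 at 272, Pik3cd at 528 and Card9 at 5319. Without irradiated replicate 3 Fcer1g was at place 24, Lcp2 at 36 and Tyrobp at 208.

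The wider route was covered by 72 genes in 4 lists, of which 64 were tested. Against vehicle, edgeR called 0 of them in either treated group. With R788 + anti-PDL1 6 of the 64 had an unadjusted p under 0.05, against 11.7% of all genes, and DESeq2 called 3, against 4.01%. With irradiation the counts were 11, against 13.2%, and 2, against 3.15%. The highest and lowest log2 fold change of each list are given here. Of 13 tested activating ITAM receptors, the highest in R788 + anti-PDL1 tumors was Fcer1a, the IgE-binding chain of the mast cell receptor. It had 4, 4 and 0 counts with vehicle, 40, 51 and 23 counts with R788 + anti-PDL1 and 7, 0 and 5 counts with irradiation. Against vehicle its log2 fold change was 3.47 ± 1.11 (edgeR adjusted p = 0.241, DESeq2 adjusted p = 0.0281). The lowest was Clec4e, the C-type lectin Mincle, at -2.15 ± 0.90. With irradiation the receptors ran from Clec4e at -1.55 to Fcgr1, the high-affinity IgG receptor, at 1.95 ± 1.02. Fcgr1 had 1.84, 1.67 and 35.5 CPM in the irradiated tumors and 3.81, 2.38 and 3.95 CPM in the vehicle tumors, so only replicate 3 was above vehicle, and without it the value was -0.94. Of the 13 receptors, 10 and 8 were above 0 in the 2 comparisons, with medians of 0.45 and 0.73. With irradiation 4 were above 0 without irradiated replicate 3 (median -0.58) and 9 without replicate 1 (median 0.64).

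Of 10 tested Src, Syk and Tec family kinases, 9 were above 0 in both comparisons with vehicle, with medians of 0.86 and 0.93. With irradiation the median was 0.26 without irradiated replicate 3 and 1.21 without replicate 1. Zap70, the relative of Syk in T cells and NK cells, was highest in both. It had 2, 4 and 7 counts with vehicle, 26, 43 and 23 counts with R788 + anti-PDL1 and 21, 33 and 53 counts with irradiation. All 6 treated tumors were above the vehicle tumors. The log2 fold changes were 2.45 ± 0.59 (edgeR adjusted p = 0.108) and 3.04 ± 0.59 (edgeR adjusted p = 0.119), and DESeq2 called both, with adjusted p-values of 0.00596 and 0.000360. Src was lowest in both, at -0.74 ± 0.20 and -0.16 ± 0.20, and DESeq2 called it lower with R788 + anti-PDL1 (adjusted p = 0.0495).

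Among 23 tested downstream adaptors and enzymes, 19 and 18 were above 0 against vehicle, with medians of 0.24 and 0.44. With R788 + anti-PDL1 they ran from Hcst, the adaptor DAP10, at -1.65 ± 1.13 to Pik3cg, the gamma subunit of PI3 kinase, at 1.35 ± 0.96. With irradiation they ran from Malt1, a partner of Card9, at -0.66 ± 0.36 to Grap2 at 1.84 ± 1.05, which was 0.01 without irradiated replicate 3. Without that tumor 12 of the 23 were above 0 (median 0.01), and without irradiated replicate 1 19 were (median 0.68). Among 18 inhibitors of ITAM signalling, 16 and 17 were above 0, with medians of 0.81 and 1.07. They ran from Csk, the kinase that holds Src kinases inactive, at -0.19 ± 0.15 to Ubash3b, a phosphatase that acts on Syk, at 1.51 ± 0.83. With irradiation they ran from Dok1 at -0.04 ± 0.24 to Sla, a Src-like adaptor, at 1.92 ± 0.70. Without irradiated replicate 3 Sla was at 0.54 and 9 of the 18 were above 0 (median 0.04), while without replicate 1 17 were above 0 (median 1.47). Dok1 was at 0.13 without vehicle replicate 1 and at 0.10 without irradiated replicate 2. Of all genes, 48.4% and 52.9% were above 0 in these comparisons. DESeq2 called Dok3 of the inhibitors with irradiation (1.72, adjusted p = 0.0287), a gene named after its values were seen, and no downstream gene in either comparison. limma-voom with quality weights called 12 of the 64 with R788 + anti-PDL1, against 30.3% of all genes, and 4 with irradiation, against 12.5%.

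Between the treated groups edgeR called 0 of the 64 genes, with 5 at an unadjusted p under 0.05, against 18.4% of all genes. DESeq2 called 1, against 4.06%, and limma-voom with quality weights called 4, against 19.3%. Fcer1a was lowest of the receptors in irradiated tumors, at -2.69 ± 1.06, and Fcgr4 highest, at 1.66 ± 0.59. The kinases ran from Lck at -0.15 to Tec at 0.69, the downstream genes from Grb2 at -0.50 to Hcst at 2.09, and the inhibitors from Dok2 at -0.22 to Fcgr2b, the inhibitory IgG receptor, at 1.03. Fcgr2b had 8.63, 11 and 130 CPM in the irradiated tumors and 18.0, 33.4 and 22.2 CPM with R788 + anti-PDL1, and without irradiated replicate 3 its value was -1.32. Without that tumor 1 of 13 receptors, 4 of 10 kinases, 6 of 23 downstream genes and 4 of 18 inhibitors were above 0, against 7, 7, 15 and 15 with it. Lck was at 0.07 and Dok2 at 0.14 without irradiated replicate 1, and both were above 0 without R788 + anti-PDL1 replicate 2 as well, at 0.27 and 0.16. Dok2 was also at 0.13 without irradiated replicate 2. Csk was called by DESeq2, at 0.58 (adjusted p = 0.0117), and by limma-voom with quality weights.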

How the data were processed

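Libraries were polyA-selected. Per the paper's methods and the labels, the authors used STAR 2.6.1d (build mm10) for alignment and Salmon 1.4.0 for quantification, within bcbio, and they deposited estimated counts per gene symbol as whole numbers with no normalization. The sources conflict on the sequencing run (single reads or paired ends) and on the RNA source (macrophages in the extraction text, whole tumor as tissue), and strandedness was not stated. Groups were taken from the treatment label.

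From these estimated counts, genes were filtered with filterByExpr (minimum count 10), scaled by TMM and tested by the quasi-likelihood method of edgeR 4.0.16 (R 4.3.3, robust) over all 9 libraries with a coefficient per group, and called at a Benjamini-Hochberg adjusted p under 0.05. DESeq2 1.42.0 and limma-voom 3.58.1 with quality weights were alternatives, and the scripts were tested on simulated data. Correlations used log2 CPM (prior count 2) and exact permutation (scipy 1.17.1). Pathway genes were named if called by edgeR or if highest or lowest of their list in a comparison. Genes called only by DESeq2 were added, and those called only by limma-voom were counted. The 10 genes and all lists were chosen with earlier results of these data known, so no count over them is independent evidence. Values of a few genes are not reported here.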

Additional observations from a re-analysis of the deposited data

How the results depend on the processing

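Over all genes the number called depended strongly on the method, and the cause was not tested. For R788 + anti-PDL1 against vehicle, edgeR called 108 genes, DESeq2 726, limma-voom with quality weights 4835, edgeR without a count filter 199 and edgeR on the 6 libraries compared 594, and 0 to 75 were called when 1 library was left out. For Rad + R788 + anti-PDL1 against vehicle the counts were 7, 553, 1993, 70 and 1 in the same order, and 1 to 57 with 1 library left out. Between the treated groups they were 1, 646, 3080, 24 and 0, and 0 to 21. Of the 10 genes, limma-voom with quality weights called 4, 1 and 2 in these comparisons, DESeq2 called 2 in the second, the fit to 6 libraries called 1 in the first, and 0 to 0 were called with any library left out.

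The median log2 fold change of the 10 genes ran from 0.68 to 1.04, from 0.10 to 1.49 and from -0.71 to 0.63 with 1 library left out, and the number above 0 from 9 to 10, 7 to 10 and 2 to 9. The median r of the 45 pairs ran from 0.66 to 0.84, and it was 0.44 with group means removed and without irradiated replicate 3 (added after seeing the data). Signs changed under limma-voom with quality weights for Card9 with R788 + anti-PDL1 (-0.20) and Tyrobp between the treated groups (-0.0242), and the r of Syk and Card9 was -0.13 with group means removed and -0.40 to 0.29 with 1 tumor left out. With 1 library left out the log2 fold change of Card9 with R788 + anti-PDL1 ran from -0.22 to 0.34, and against vehicle with irradiation Syk ran from -0.12 to 1.03, Tyrobp from -0.39 to 1.18 and Lcp2 from -0.12 to 1.72. Between the treated groups Syk ran from -1.01 to 0.15, Tyrobp from -0.76 to 0.62, Fcer1g from -0.79 to 0.68, Btk from -0.95 to 0.88, Lyn from -0.66 to 0.81, Lcp2 from -1.26 to 0.55 and Vav1 from -0.22 to 1.01. Among the values for single genes and pairs, under alternatives that kept all their libraries, 223 kept direction and side of the threshold. Another 10 were stronger and 4 reversed.

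Deviations of libraries with the same replicate number correlated at -0.05 to 0.23, and those with different numbers at -0.23 to 0.12. The highest values were of same-number pairs, irradiated with vehicle replicate 1 (0.23) and replicate 2 (0.19). Whether the numbers pair the tumors cannot be told from these values, and the main fit used no pairing. With the replicate block, edgeR called 0, 3 and 0 genes over the whole table and 0 of the 10 in each comparison, and only Lcp2 between the treated groups changed sign (-0.21). Counts of 17 (Card9, vehicle replicate 1) to 1348 per library lay behind the values of the 10 genes. The common dispersion was 0.146 with all libraries and 0.0870 without irradiated replicate 1.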

Other observations

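Markers of other cells that a tumor can hold gave the following values. edgeR called 0 genes of each list against vehicle in either treated group, against 0.678% and 0.0439% of all genes. The counts at an unadjusted p under 0.05 are given beside, and the shares of all genes were 11.7% with R788 + anti-PDL1 and 13.2% with irradiation. Of 4 NK cell markers, 4 had log2 fold changes above 0 with R788 + anti-PDL1, with a median of 2.27 and 1 gene at an unadjusted p under 0.05, and 3 did not overlap vehicle (13.6% of all genes were higher without overlap). With irradiation the median was 1.97, also with 1 gene. Of 4 B cell markers, 2 were tested, with log2 fold changes of 1.67 for Cd22 and 1.12 for Ms4a1 with R788 + anti-PDL1 (0 genes) and of 2.47 and 0.35 with irradiation (1 gene). Dendritic cell markers, 3 tested of 4, had medians of 1.75 and 0.78 (0 genes in both). Endothelial markers, 3 of 3, had medians of 0.97 and 0.06 (2 genes and 1 gene), fibroblast markers, 5 of 5, had 0.26 and 0.24 (1 gene and 0 genes), and platelet markers, 2 of 3, had -0.24 and 0.31 (0 genes in both). Neutrophil markers, 4 of 6, had -1.87 and -0.29 (2 genes and 1 gene). Of these 7 lists, DESeq2 called 2 neutrophil markers lower and 1 fibroblast marker higher with R788 + anti-PDL1, and 1 B cell marker higher with irradiation. Of all genes, DESeq2 called 4.01% and 3.15% in the 2 comparisons, and limma-voom with quality weights called 30.3% and 12.5%. limma-voom with quality weights called 1 NK cell marker higher in each comparison, and 2 endothelial markers higher with R788 + anti-PDL1 and 1 with irradiation. Its other calls were 2 neutrophil markers lower, 1 dendritic cell marker higher, and 1 fibroblast marker higher and 1 lower with R788 + anti-PDL1, and 1 B cell and 1 fibroblast marker higher with irradiation. The part of these cells in the levels of the 10 genes was not tested.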
